A study of Mus musculus with 12 samples.

Results

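The genes described here are 7 members of the interleukin-6 (IL-6) cytokine family, chosen by symbol from the 45777 genes of the deposited table: the ligands *Lif* and *Osm* and the receptor chains *Osmr*, *Lifr*, *Il6ra*, *Il6st* and *Il27ra*. All 7 were among the 23585 genes tested. RNA-seq was performed on polyA RNA of splenic CD4+ T cells from wild type mice, which the labels give as 7 weeks old and of the Balb/c strain, while the methods of the study name C57BL/6 mice for the sequenced cells and give its mice another age, so strain and age are uncertain. All 4 groups were stimulated for 3 days with anti-CD3 at 0.5 ug/mL, an antibody to CD3 that triggers the T-cell receptor complex, so no unstimulated cells enter any comparison. One group had no other agent. The others also had *L. acidophilus* (a *Lactobacillus*, which the study used heat-inactivated), FK506 (tacrolimus, an inhibitor of the phosphatase calcineurin, which activates NFAT transcription factors), or both agents, called the combination. Each group had 3 libraries, and nothing in the labels says whether these were separate mice or cultures, so p-values measure the spread between these libraries, which may be technical. The labels give no dose of *L. acidophilus* or FK506 for these samples.

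Cytokines of the IL-6 family signal through receptor complexes that share the chain gp130, encoded by *Il6st*. LIF binds LIFR with gp130, and oncostatin M, the product of *Osm*, binds OSMR with gp130. IL-6 binds IL-6Rα, the product of *Il6ra*, and IL-27, made of the subunits encoded by *Il27* and *Ebi3*, binds IL-27Rα with gp130. The complexes activate JAK kinases and STAT transcription factors, STAT3 above all, and SOCS3 is induced by STAT3 and blocks gp130. In T cells, IL-6 favours Th17 differentiation, whereas LIF is a ligand made by activated T cells.

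On GRCm38.p6 (RefSeq), *Lif* lies on chromosome 11 at chr11:4257568-4272514 and *Osm* at chr11:4236785-4241026, both on the plus strand, 16.54 kb apart with no annotated gene between them. *Osmr* lies at chr15:6813568-6874968 on the minus strand and *Lifr* at chr15:7090610-7197489 on the plus strand, 215.6 kb apart. *Il6ra* lies at chr3:89869324-89913196 on the minus strand and overlaps Gm46811, *Il6st* at chr13:112464070-112506860 on the plus strand, and *Il27ra* at chr8:84030286-84042600 on the minus strand, overlapping Palm3. Whether the counting used strand is not given in the sources used here, so reads of these overlapping genes may be shared.

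RefSeq promoters, from 250 bases before to 50 bases after a start site, were found for 5 of the 7 genes, with 2 start sites for *Lifr*. They were searched on both strands for the AP-1 motif TGANTCA, the NFAT core GGAAA, the STAT motif TTCNNNGAA and the EGR-like motif GCGTGGGCG, since T-cell receptor signals act through AP-1 and NFAT and the family itself through STAT. Of 32851 promoters of this length in the reference, 7.81% held the AP-1 motif, 61.3% the NFAT core, 8.3% the STAT motif and 0.612% the EGR-like motif. *Lif* and *Osmr* held 1 AP-1 match each, TGACTCA at position -228 and TGATTCA at position 3 (counting the start site as 0), and 1 and 3 NFAT cores. *Il6st* held 2 NFAT cores and no match to the other motifs, and the promoters of *Il6ra* and *Lifr* held no match to any of the 4. The promoters of *Lif*, which fell in the combination, and of the receptor genes *Osmr*, which fell there, and *Lifr*, which rose with FK506, are shown up to 30 bases from the start site on, 5′ to 3′, with AP-1 matches in capitals. They cover chr11:4257318-4257597 (plus strand), chr15:6874284-6874563 (minus strand) and chr15:7129322-7129601 (plus strand), the last 2 at start sites inside the annotated span of their gene.
Lif: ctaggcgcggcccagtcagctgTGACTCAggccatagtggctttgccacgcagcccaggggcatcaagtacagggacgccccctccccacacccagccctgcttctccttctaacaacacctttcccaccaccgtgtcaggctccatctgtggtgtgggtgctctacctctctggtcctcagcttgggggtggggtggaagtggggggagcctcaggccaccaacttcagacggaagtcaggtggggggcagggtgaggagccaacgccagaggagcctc
Osmr: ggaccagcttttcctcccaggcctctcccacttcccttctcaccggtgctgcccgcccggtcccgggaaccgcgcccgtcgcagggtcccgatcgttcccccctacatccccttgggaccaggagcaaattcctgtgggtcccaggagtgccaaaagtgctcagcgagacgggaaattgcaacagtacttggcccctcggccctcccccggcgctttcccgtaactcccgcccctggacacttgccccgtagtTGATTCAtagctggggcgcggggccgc
Lifr: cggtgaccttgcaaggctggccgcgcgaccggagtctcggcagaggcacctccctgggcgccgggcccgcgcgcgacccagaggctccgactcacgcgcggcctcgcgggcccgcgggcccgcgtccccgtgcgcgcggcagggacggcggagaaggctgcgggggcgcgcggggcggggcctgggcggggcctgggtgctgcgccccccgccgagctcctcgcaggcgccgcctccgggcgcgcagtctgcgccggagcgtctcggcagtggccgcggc
A match describes these letters only and is not evidence that a factor binds there.

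The libraries held 45416397 to 64658165 counts each. All 7 CD4+ T-cell markers (such as *Cd4* and *Cd3e*) were present in every group, with summed levels of 1202 to 1963 FPKM per library. FPKM is a level per transcript length and library size, so genes can be compared on it. Markers of other cells moved with the groups. Summed FPKM of 10 B-cell markers ran from 39.8 to 65.4 (anti-CD3 alone), 26.8 to 38.3 (*L. acidophilus*), 238 to 479 (FK506) and 138 to 165 (combination), with none at 0 in any group. The 10 myeloid and dendritic markers summed to 2.53 to 4.27, 3.79 to 7.82, 6.34 to 20.1 and 48.5 to 75.4 FPKM in the same order, with *S100a8* at 0 in all 4 groups, *S100a9* in all but the combination and *Csf1r* with anti-CD3 alone. Most of the combination sum came from *Lyz2* and *Cd68*. Of 8 tested, 5 were called higher and 1 lower in the combination than with FK506. The lower one was *Itgax*, at 1.02 to 2.01 FPKM with FK506 and 0.648 to 0.766 in the combination. Both CD8+ T-cell markers together stood at 2.21 to 5.14, 3.34 to 6.29, 4.63 to 9.02 and 4.34 to 5.01 FPKM, and 1 of them, *Cd8a*, rose with FK506 (log2 2.38, edgeR adjusted p = 0.0123) and was lower in the combination than with FK506 (-1.98, adjusted p = 0.0269). The 2 NK-cell markers summed to at most 1.19 FPKM and the 8 stromal and endothelial markers to at most 0.788 FPKM, both in the combination. There 1 of 2 and 2 of 6 tested, respectively, were called higher than anti-CD3 alone, beside 13.8% of all genes. Since IL-6 family receptors are also made by B cells and myeloid cells, these shifts stand beside every receptor result here, and their part in it was not tested. In bulk RNA, fewer cells that make a transcript and less of it per cell cannot be told apart.

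*Lif*, the gene of leukemia inhibitory factor, had the highest mean level of the 7 genes with anti-CD3 alone, and its level was lowest in the combination. Its level was 102, 41.9 and 58.6 FPKM in the 3 libraries with anti-CD3 alone, 51.2, 27.0 and 36.1 with *L. acidophilus*, 20.8, 17.5 and 38.8 with FK506, and 4.86, 5.50 and 5.36 in the combination. Every combination library lay below every other library, and the FK506 libraries lay below those with anti-CD3 alone, whereas the *L. acidophilus* and anti-CD3 ranges overlapped. *Lif* fell 14.8-fold in the combination against anti-CD3 alone (log2 fold change -3.89 ± 0.39 SE, edgeR adjusted p = 2.27e-05, n = 3 per group). It also fell 5.23-fold against FK506 (-2.39 ± 0.37, adjusted p = 0.00147) and 7.85-fold against *L. acidophilus* (-2.97 ± 0.38, adjusted p = 0.000172). Combination values thus lay below those of either agent given alone. With FK506 alone *Lif* fell 2.83-fold (-1.50 ± 0.36, adjusted p = 0.0129), and this call was lost without FK506 replicate 1 (adjusted p = 0.0552) or FK506 replicate 2 (adjusted p = 0.0622). With *L. acidophilus* alone the log2 difference was -0.91 ± 0.35 and did not pass the test (adjusted p = 0.258).

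*Osm*, the gene of oncostatin M, was lower with FK506 whether or not *L. acidophilus* was present. Its level was 27.4, 18.8 and 18.3 FPKM with anti-CD3 alone, 12.7, 12.5 and 14.3 with *L. acidophilus*, 5.57, 5.35 and 8.27 with FK506, and 8.29, 5.11 and 4.51 in the combination. Both groups with FK506 lay below both groups without it, and their own ranges overlapped. *Osm* fell 3.64-fold with FK506 (log2 fold change -1.86 ± 0.27, edgeR adjusted p = 0.000956) and 4.14-fold in the combination (-2.05 ± 0.27, adjusted p = 0.000121) against anti-CD3 alone. Against *L. acidophilus*, the combination fell 2.39-fold (-1.25 ± 0.27, adjusted p = 0.00375). Between the combination and FK506 the log2 difference was -0.19 ± 0.27 (adjusted p = 0.688), so *Osm* differed by less than its error where *Lif* fell further. The *L. acidophilus* libraries all lay below those with anti-CD3 alone, with a log2 difference of -0.79 ± 0.26 that did not pass the test (adjusted p = 0.199).

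*Osmr*, the oncostatin M receptor chain, was scarce, at 0.302 FPKM or less in every library. The counts were 114, 41 and 45 with anti-CD3 alone, 50, 38 and 38 with *L. acidophilus*, 9, 9 and 29 with FK506, and 0, 0 and 20 in the combination. Combination libraries 1 and 2 had no count and library 3 had 20, so the group rests on 1 library. *Osmr* fell in the combination against anti-CD3 alone (log2 fold change -3.30 ± 1.03, edgeR adjusted p = 0.0219). The call was lost without anti-CD3 replicate 1 (adjusted p = 0.063) or combination replicate 2 (-2.75, adjusted p = 0.0603), and the value was -2.67 without combination replicate 1. Without combination replicate 3 it was -9.07 (adjusted p = 0.000536), a fitted value that rests on 2 libraries at 0 and is no bound. The call was also lost with only the 6 libraries compared (adjusted p = 0.0597) and, being under 2-fold, with limma on log2(FPKM + 1), so that *Osmr* was called in 16 of 20 alternative fits. Against FK506 (-1.30 ± 1.06, adjusted p = 0.436) and against *L. acidophilus* (-2.62 ± 1.03, adjusted p = 0.0699) the combination did not pass the test. Without combination replicate 3, where both remaining libraries are at 0, both comparisons passed (adjusted p = 0.0117 and 0.00154), and so did FK506 against anti-CD3 alone (-2.01, adjusted p = 0.164 with all libraries and 0.0365 without that one). Single libraries moved these values, that of FK506 against anti-CD3 alone to -2.86 without FK506 replicate 3 or -1.52 without anti-CD3 replicate 1, and that of the combination against FK506 to -0.40 without FK506 replicate 3. For the combination against *L. acidophilus* the value ranged from -8.38 (without combination replicate 3, no bound) to -1.99. DESeq2 (-2.56, adjusted p = 0.0469) and edgeR with a replicate block (-3.03, adjusted p = 0.0423) called this comparison. *L. acidophilus* against anti-CD3 gave -0.68 ± 0.89 (adjusted p = 0.782).

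*Lifr*, the LIF receptor chain, went the other way with FK506. The counts were 22, 0 and 7 with anti-CD3 alone, 19, 0 and 10 with *L. acidophilus*, 513, 249 and 177 with FK506, and 47, 34 and 62 in the combination, which correspond to at most 0.0295, 0.026, 0.768 and 0.113 FPKM. The FK506 libraries lay above all others, and the combination lay between them and both groups without FK506. *Lifr* rose 31.4-fold with FK506 (log2 fold change 4.97 ± 0.89, edgeR adjusted p = 0.00298) from a level near 0, and remained scarce, at 0.529 ± 0.219 FPKM (SD, n = 3). The value ranged from 4.44 to 6.28 when single libraries were left out, with 6.28 without anti-CD3 replicate 1, and was called each time. Of 20 alternative fits 19 called it, the exception being limma on log2(FPKM + 1), where the difference was under 2-fold (0.58, adjusted p = 0.00134). In the combination it was lower than with FK506 (-2.71 ± 0.77, adjusted p = 0.0296), a call lost without FK506 replicate 1 or 2 or without any 1 of the combination libraries (adjusted p between 0.0573 and 0.103). Against anti-CD3 alone, the combination differed by 2.26 ± 0.86 and missed the threshold (adjusted p = 0.0508), although it passed in 8 of 20 alternative fits. This value ranged from 1.73 to 3.57 when single libraries were left out, and was 3.57 (adjusted p = 0.0174) without anti-CD3 replicate 1. Against *L. acidophilus* the combination differed by 2.30 ± 0.86 and missed the threshold (adjusted p = 0.0582), passing in 7 of 20 alternative fits. With single libraries left out it ranged from 1.75 without *L. acidophilus* replicate 2 to 3.07 without *L. acidophilus* replicate 1. *L. acidophilus* against anti-CD3 gave -0.04 ± 0.94 (adjusted p = 1). The summed B-cell markers and *Cd8a* were also highest with FK506 and lower in the combination, and their part in the *Lifr* values was not tested.

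*Il6ra*, which encodes the chain that binds IL-6, shifted by less than 2-fold in every comparison. Its level was 10.4, 7.97 and 12.5 FPKM with anti-CD3 alone, 11.4, 13.0 and 13.9 with *L. acidophilus*, 10.3, 15.1 and 14.7 with FK506, and 19.6, 17.8 and 16.8 in the combination. All 3 combination libraries lay above the other 9. Against anti-CD3 alone the combination was 1.53-fold higher, with an adjusted p under the threshold and a change under the 2-fold cut-off (log2 0.62 ± 0.17, edgeR adjusted p = 0.0131). Against FK506 (0.34 ± 0.17, adjusted p = 0.194) and *L. acidophilus* (0.38 ± 0.17, adjusted p = 0.113) it did not pass. FK506 and *L. acidophilus* alone differed from anti-CD3 by 0.27 ± 0.17 and 0.24 ± 0.17, with adjusted p of 0.299 and 0.553.

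*Il6st*, which encodes the shared chain gp130, was highest with FK506. Its level was 14.1, 7.79 and 12.1 FPKM with anti-CD3 alone, 14.9, 11.1 and 12.6 with *L. acidophilus*, 20.4, 20.4 and 21.4 with FK506, and 18.6, 16.6 and 17.9 in the combination. By FPKM, both FK506-treated groups lay above both groups without FK506, and the combination lay below FK506 in every library. FK506 was 1.69-fold higher than anti-CD3 alone (log2 0.76 ± 0.18, edgeR adjusted p = 0.0125), under the 2-fold cut-off. The combination differed by 0.44 ± 0.18 from anti-CD3 alone (adjusted p = 0.0664), by -0.32 ± 0.18 from FK506 (adjusted p = 0.242) and by 0.34 ± 0.18 from *L. acidophilus* (adjusted p = 0.174). *L. acidophilus* against anti-CD3 gave 0.10 ± 0.18 (adjusted p = 0.858), so *Il6st* in these groups differed by less than its error.

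*Il27ra*, which encodes the IL-27 receptor chain, was the most abundant receptor of the 7 genes in every group. Its level was 50.1, 47.4 and 38.4 FPKM with anti-CD3 alone, 52.8, 37.2 and 36.1 with *L. acidophilus*, 74.7, 81.8 and 62.0 with FK506, and 93.8, 72.1 and 71.3 in the combination. As for *Il6st*, both groups with FK506 lay above both without it. The combination was higher than anti-CD3 alone (log2 0.58 ± 0.19, edgeR adjusted p = 0.0251) and 1.71-fold higher than *L. acidophilus* (0.78 ± 0.19, adjusted p = 0.0076), both under the 2-fold cut-off. FK506 against anti-CD3 gave 0.55 ± 0.19 (adjusted p = 0.0609), the combination against FK506 0.03 ± 0.19 (adjusted p = 0.944) and *L. acidophilus* against anti-CD3 -0.19 ± 0.19 (adjusted p = 0.673).

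**Figure D1:**
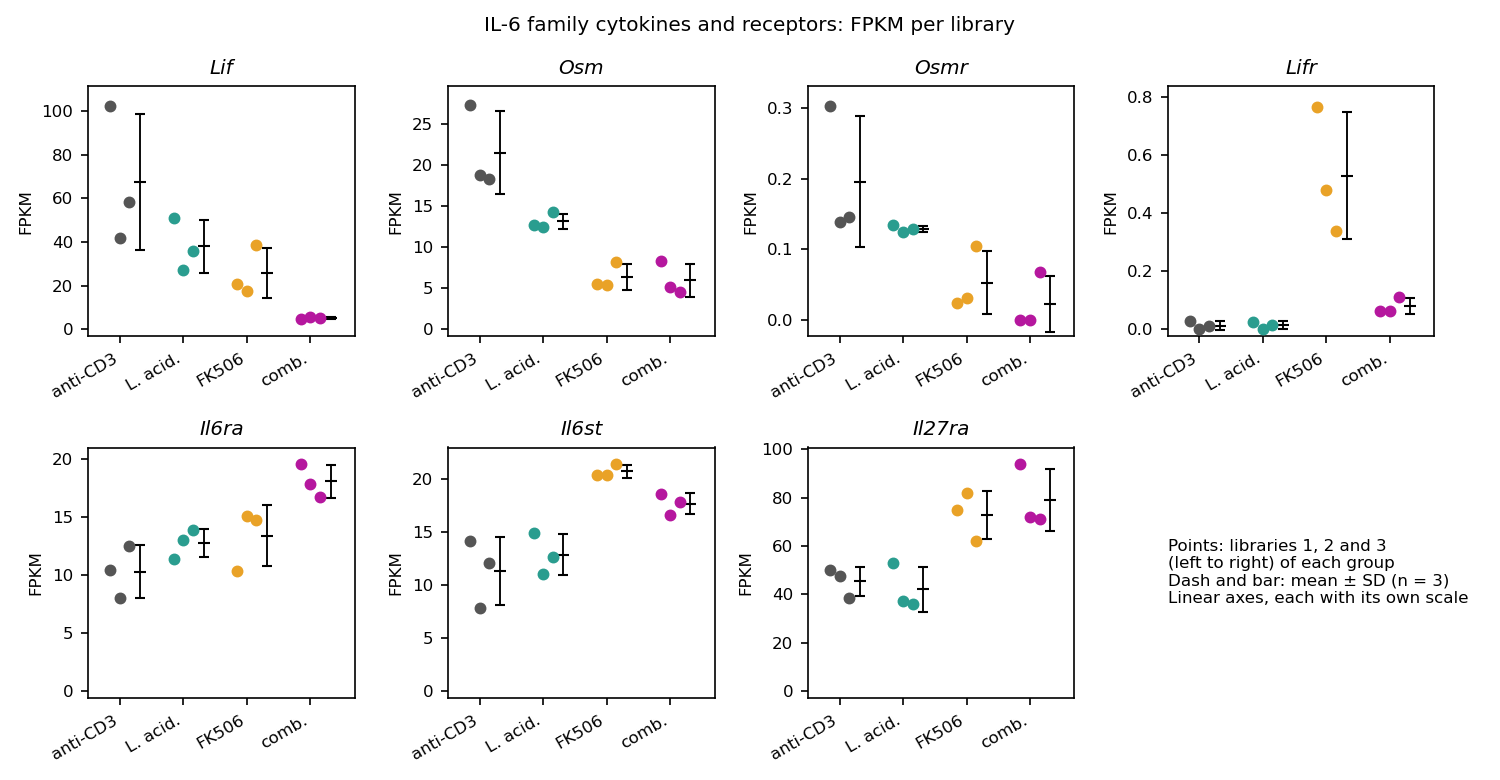
Level of each of the 7 genes (FPKM, linear axes from about 0, each with its own scale) in the 4 groups. Points are libraries 1 to 3 from left to right, and the dash and bar are mean ± SD (n = 3). *Lif* sits between 4.86 and 5.50 in the combination, below all other libraries, while *Lifr* is high only with FK506 (0.339 to 0.768).

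The comparison of the combination with anti-CD3 alone asks what both agents do together to activated cells. In edgeR, *Lif*, *Osm* and *Osmr* were called lower and no gene of the 7 was called higher, so the ligand transcripts went down. *Il6ra* and *Il27ra* passed the adjusted p and shifted up by less than 2-fold. *Lifr* was higher by more than 2-fold and missed the adjusted p in edgeR. It was called higher in 8 of 20 alternative fits, DESeq2 among them (log2 2.36, adjusted p = 0.0161). Calls needed a change of at least 2-fold and, over all 23585 genes, an adjusted p (Benjamini-Hochberg) under 0.05. By this rule 3 of the 7 genes were called, all lower, beside a background of 24.6% of all genes (13.8% higher and 10.8% lower). The median log2 difference over the 7 genes was 0.44, beside 0.02 over all genes. FPKM ranges of both groups did not overlap for 7 of 7 genes, beside 50.0% of all genes.

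FK506 against anti-CD3 alone asks for the effect of calcineurin inhibition. *Lif* and *Osm* fell and *Lifr* rose, so 3 of 7 genes were called, beside 10.6% of all genes (6.44% higher and 4.12% lower). *Il6st* passed the adjusted p and not the fold. The median log2 difference was 0.27, beside 0.00 over all genes, and the ranges did not overlap for 6 of 7 genes, beside 32.1% of all genes.

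For *L. acidophilus* against anti-CD3 alone, edgeR called 0 of the 7 genes, and so did DESeq2 and limma. At an unadjusted p under 0.05, 2 genes passed (*Lif* and *Osm*, both lower). The background was 44 genes or 0.187% of all (0.157% higher and 0.0297% lower), a count that ranged from 1 to 164 when single libraries were left out and was 438 with DESeq2. The ranges did not overlap for 2 of 7 genes (*Osm* and *Osmr*), beside 17.8% of all genes, and the median log2 difference was -0.19, beside 0.00.

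The combination against each single agent asks what the other agent adds. Against FK506, *Lif* and *Lifr* fell, 2 of 7 genes beside 7.44% of all (3.84% higher and 3.60% lower), and the ranges did not overlap for 4 of 7 genes beside 41.1% of all. Against *L. acidophilus*, *Lif* and *Osm* fell, 2 of 7 genes beside 16.6% of all (9.93% higher and 6.64% lower), and the ranges did not overlap for 7 of 7 genes beside 50.2% of all. The replicate numbers were taken as pairs of *L. acidophilus* and combination libraries, although the labels do not give a pairing. With a block for the replicate number, 4 of the 7 genes were called in this comparison, *Lifr* (log2 2.52, edgeR adjusted p = 0.0311) and *Osmr* (-3.03, adjusted p = 0.0423) being added. The median log2 differences over the 7 genes were -0.32 against FK506 and 0.34 against *L. acidophilus*, beside 0.03 and 0.00 over all genes.

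The departure from the sum, the combination minus both single agents plus anti-CD3 alone on the log2 scale, asks whether the joint effect differs from the added single effects. edgeR called 0 of the 7 genes at an adjusted p under 0.05, beside 4.35% of all genes (1.35% higher and 3.00% lower), and 2 passed at an unadjusted p under 0.05. These were *Lif* (-1.47 ± 0.50, adjusted p = 0.126), and *Lifr* (-2.67 ± 1.22, adjusted p = 0.252). The *Lifr* departure ranged from -3.98 without anti-CD3 replicate 1 to -1.90 without *L. acidophilus* replicate 1, and passed in neither fit. On simulated counts with 1 fixed spread for all genes, the edgeR test missed most departures of 2-fold. A count of 0 thus does not show that there were none of that size. DESeq2 called 1 gene, *Lif* (adjusted p = 0.032), beside 14.3% of the genes to which it gave an adjusted p, and limma on log2(FPKM + 1) called 1, *Lifr*, beside 7.1% of all genes. In edgeR the share of all genes fell as low as 1.4%, without *L. acidophilus* replicate 2. Adjusted p for *Lif* ranged from 0.032 to 0.263 over the alternatives, and it passed also without anti-CD3 replicate 1 (0.0443). The other 5 genes lay between -0.61 (*Osmr*) and 0.61 (*Osm*), with adjusted p of 0.401 or more.

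**Figure D2:**
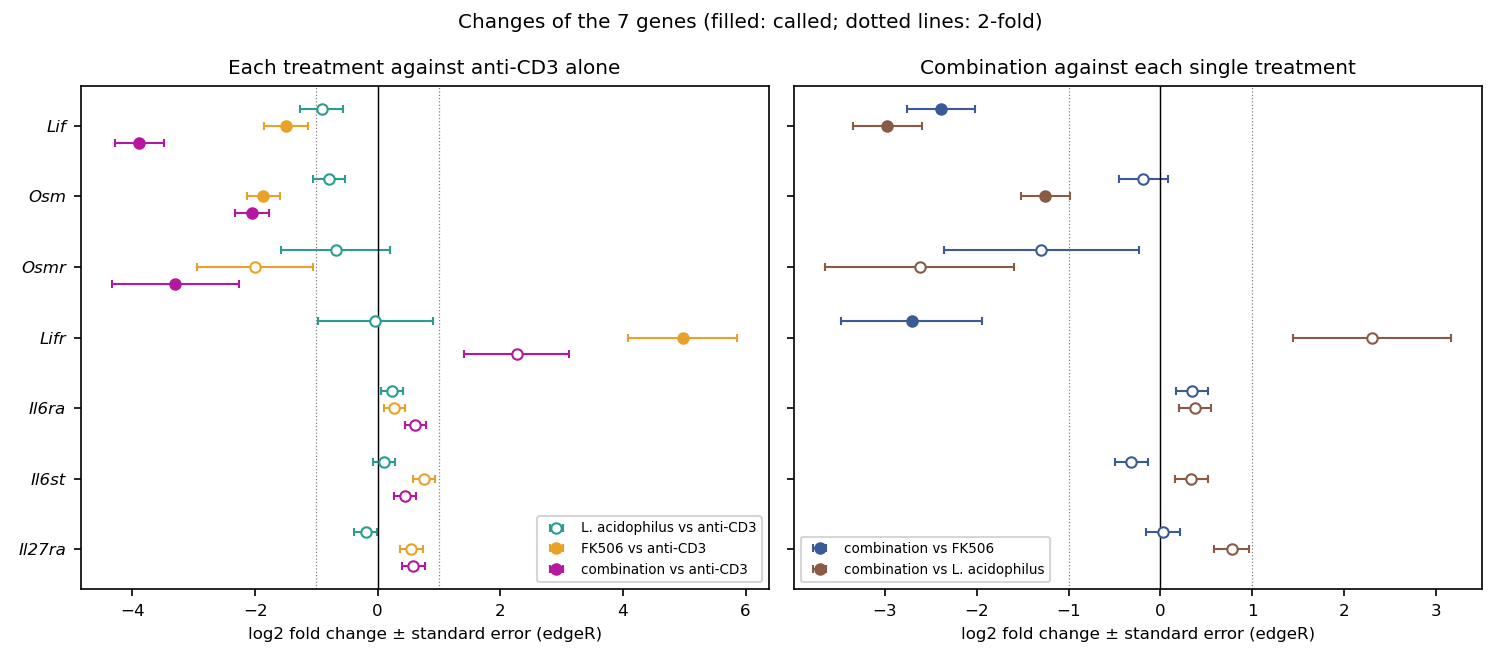
Log2 fold change ± SE (edgeR, 3 libraries per group) of the 7 genes, for each treatment against anti-CD3 alone (left) and for the combination against each single agent (right). Filled points passed the adjusted p and the 2-fold cut-off (dotted lines). *Lif* is filled in 4 of the 5 comparisons, and *Il6ra*, *Il6st* and *Il27ra* lie inside the dotted lines in all of them.

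The order of the 7 genes by mean FPKM turned over between the groups. With anti-CD3 alone it was *Lif* (67.6 ± 31.2), *Il27ra* (45.3 ± 6.12), *Osm* (21.5 ± 5.07), *Il6st* (11.3 ± 3.24), *Il6ra* (10.3 ± 2.26), *Osmr* (0.196 ± 0.0925) and *Lifr* (0.0132 ± 0.015), all mean ± SD, n = 3. *Lif* and *Il27ra* overlapped in this order, as did *Il6st* and *Il6ra*. In the combination the order was *Il27ra* (79.1 ± 12.8), *Il6ra* (18.1 ± 1.44), *Il6st* (17.7 ± 0.972), *Osm* (5.97 ± 2.03), *Lif* (5.24 ± 0.337), *Lifr* (0.0808 ± 0.0278) and *Osmr* (0.0229 ± 0.0396). There the 3 abundant receptors stood above both ligands, and *Il6ra* and *Il6st*, *Osm* and *Lif*, and *Lifr* and *Osmr* were neighbours within their spread. With FK506 *Lif* (25.7 ± 11.4) still stood second after *Il27ra* (72.8 ± 10.1) and overlapped *Il6st* (20.7 ± 0.605).

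Ratios within a library show this without comparing libraries in scale. The ratio of *Lif* to *Osm* FPKM was 3.74, 2.22 and 3.20 with anti-CD3 alone, 4.01, 2.17 and 2.53 with *L. acidophilus*, 3.73, 3.27 and 4.69 with FK506, and 0.586, 1.08 and 1.19 in the combination. The combination lay below the other 3 groups, whose ranges overlapped, and there both ligands were at similar levels. The summed ligands *Lif* and *Osm* over the summed receptors *Il6ra*, *Il6st* and *Il27ra* were 1.74, 0.961 and 1.22 with anti-CD3 alone, 0.808, 0.644 and 0.804 with *L. acidophilus*, 0.250, 0.195 and 0.479 with FK506, and 0.0996, 0.0995 and 0.0932 in the combination. The 4 groups did not overlap on this ratio and the combination libraries were nearly equal. The ratio of *Il6ra* to *Il6st* was 0.508 to 0.742 with FK506 and 0.738 to 1.18 in the other 9 libraries, so the FK506 range touched that of anti-CD3 alone. These ratios were formed after the levels were known and are given without a test.

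**Figure D3:**
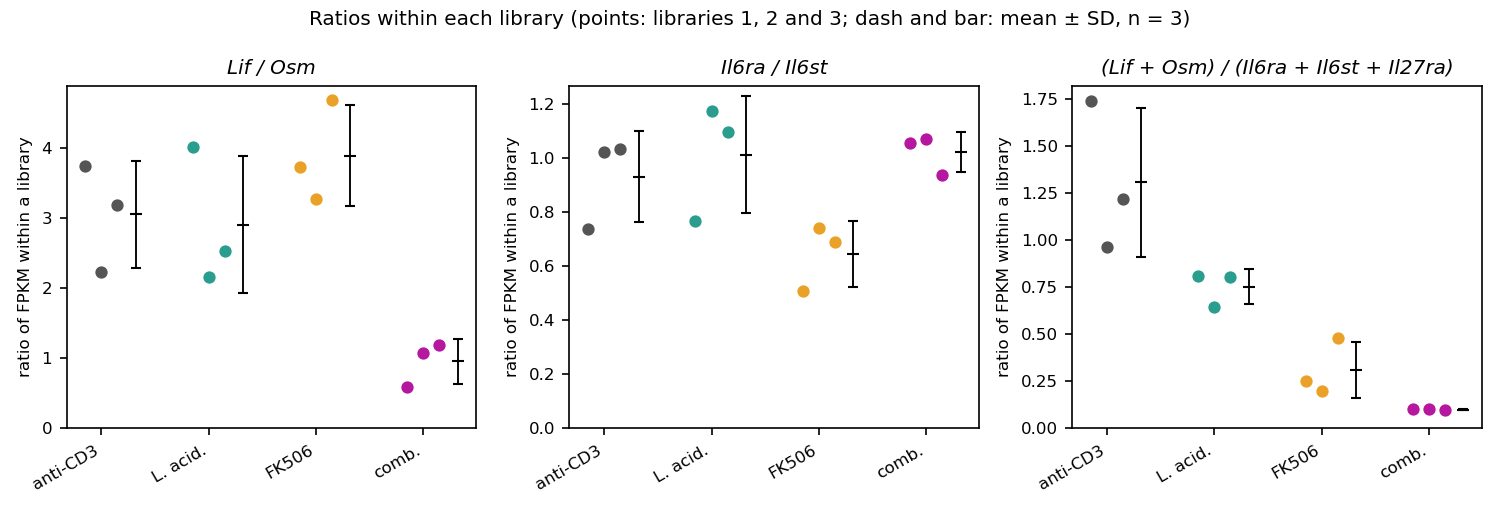
Ratios of FPKM within each library by group: *Lif* to *Osm* (left), *Il6ra* to *Il6st* (middle), and *Lif* plus *Osm* to the sum of *Il6ra*, *Il6st* and *Il27ra* (right). Points are libraries 1 to 3, and dash and bar are mean ± SD (n = 3). In the right panel all 3 combination libraries lie between 0.0932 and 0.0996.

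Among 12220 genes with a mean of at least 1 FPKM, those whose log2 level over the 12 libraries ran closest to *Lif* were *Hk2* (hexokinase 2), *Ak4* (adenylate kinase 4) and *Epn2* (epsin 2), with root mean square differences of 0.25, 0.30 and 0.41 beside an SD of 1.46 for *Lif* itself. *Osm*, at 0.87, was less like *Lif* than these. Closest to *Osm* were Gm10566, *Pim3* and *Castor1* (0.30 to 0.31, beside an SD of 0.89). For *Il6ra*, *Il6st* and *Il27ra*, whose SDs were 0.30, 0.37 and 0.40, the closest genes lay at 0.12 to 0.14. These are descriptions over libraries that share groups.

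Other ligands of the family moved in both directions. *Il27*, which encodes the p28 subunit of IL-27, was 3.76, 1.59 and 1.09 FPKM with anti-CD3 alone, 0.319, 0.528 and 0.743 with *L. acidophilus*, 0.401, 0.412 and 1.51 with FK506 and 0 in all 3 combination libraries. Against a floor of 3 counts per library the combination was at least 55.3-fold lower than anti-CD3 alone (edgeR adjusted p = 0.000145), at least 19.1-fold lower than FK506 and at least 12.9-fold lower than *L. acidophilus*. Without anti-CD3 replicate 1 the first bound was 34.1-fold, and without FK506 replicate 3 the second was 10.2-fold. Its partner *Ebi3* did not share this, at 11.3 ± 2.34 FPKM with anti-CD3 alone and 25.6 ± 4.81 in the combination (log2 0.98 ± 0.31, adjusted p = 0.0217, under 2-fold). Thus the IL-27 receptor transcript and 1 ligand subunit were abundant in the combination while the other subunit was not detected. *Il27* overlaps Apobr in the annotation, and *Ebi3* overlaps Zfp119b.

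*Il6*, the ligand of *Il6ra*, was 0.408, 0.371 and 0.348 FPKM with anti-CD3 alone, 1.35, 0.219 and 0.502 with *L. acidophilus*, 0.135, 0.157 and 0.107 with FK506, and 2.26, 1.12 and 1.65 in the combination. It rose 3.78-fold in the combination against anti-CD3 alone (log2 1.92 ± 0.52, edgeR adjusted p = 0.0112) and 11.2-fold against FK506 (3.49 ± 0.58, adjusted p = 0.0021). *Il6* is also made by B cells and myeloid cells, and the summed myeloid markers were highest in the same group; their part was not tested. *Clcf1*, which encodes a B-cell-stimulating cytokine of the family, rose from 8.05 ± 0.955 to 25.1 ± 2.78 FPKM (log2 1.44 ± 0.17, adjusted p = 6.55e-05). *Ctf1*, the gene of cardiotrophin 1, fell from 0.24 ± 0.036 to 0.0395 ± 0.0361 FPKM (-2.52 ± 0.89, adjusted p = 0.0386), a call lost without anti-CD3 replicate 1, 2 or 3, *L. acidophilus* replicate 2 or 3 or combination replicate 1 or 3 (adjusted p of 0.0534 to 0.0816). Without combination replicate 2 its value was -3.32 (adjusted p = 0.0334).

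Of the 10 other ligands, 9 could be tested, and in the combination against anti-CD3 alone 2 rose, 2 fell and 5 were not called, beside 13.8% and 10.8% of all genes (median log2 0.23, beside 0.02 over all genes). *Il11*, *Il31* and *Cntf* were at 0.98 FPKM or less in every library and were not called, and *Ctf2* was at 0 in all 12. With FK506 alone 0 of 9 were called by edgeR, beside 10.6% of all genes, with 4 at an unadjusted p under 0.05, 2 by DESeq2 and 0 by limma on log2(FPKM + 1). Of the 3 other receptor chains, *Il31ra* was 0.0805 to 0.202 FPKM in the 9 libraries of the other groups and 0 in the combination, at least 13.6-fold lower than with anti-CD3 alone (adjusted p = 6.47e-05). *Il11ra1* rose from 0.76 ± 0.147 to 2.94 ± 0.513 FPKM (1.72 ± 0.32, adjusted p = 0.001); near-identical copies of it in the genome make this value uncertain. *Cntfr* was at 0.0117 FPKM or less.

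**Figure D4:**
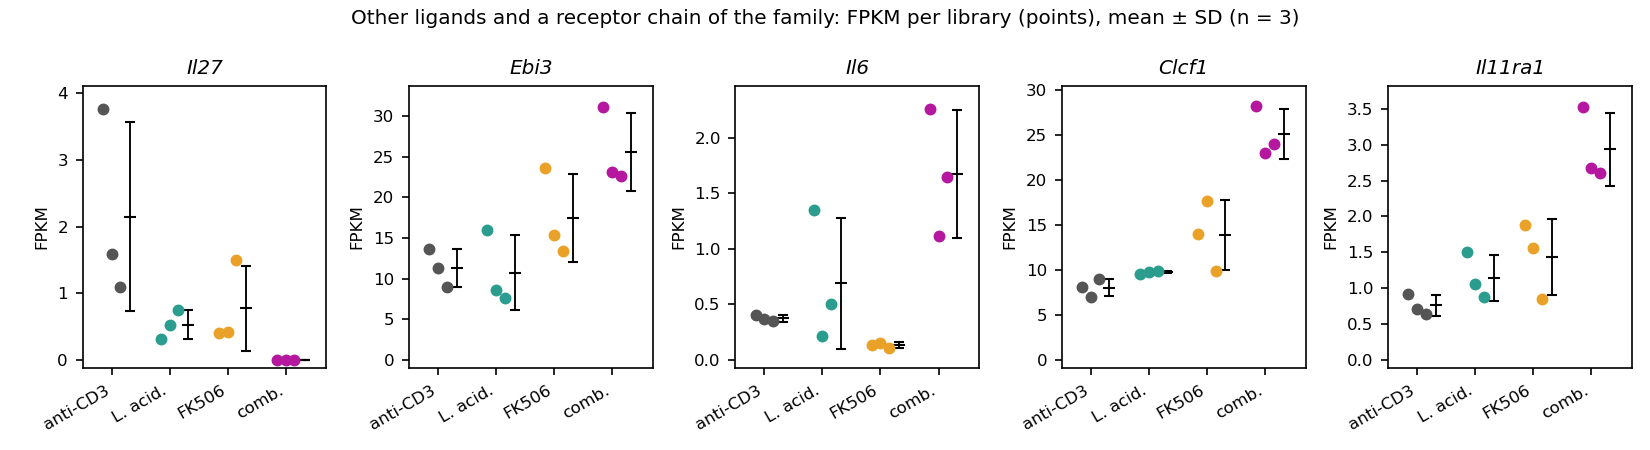
Level (FPKM, linear axes) of the ligand genes *Il27*, *Ebi3*, *Il6* and *Clcf1* and of the receptor gene *Il11ra1* in the 4 groups. Points are libraries, and dash and bar are mean ± SD (n = 3). *Il27* is at 0 in all 3 combination libraries, where the other 4 genes reach their highest mean.

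Of 5 receptor chains related to gp130, 2 rose and 2 fell in the combination against anti-CD3 alone, beside 13.8% and 10.8% of all genes. *Il12rb2*, which encodes the signalling chain of the IL-12 receptor, fell from 52.2 ± 15.3 to 2.65 ± 0.359 FPKM in the combination (log2 -4.13 ± 0.38, edgeR adjusted p = 1.35e-05) and to 5.13 ± 2.81 with FK506 (-3.42 ± 0.37). *Il23r*, the IL-23 receptor chain of Th17 cells, rose from 0.14 ± 0.0473 to 4.17 ± 0.532 FPKM (4.65 ± 0.55, adjusted p = 5.63e-05). *Il12rb1*, the chain shared by both receptors, fell from 87.6 ± 12.6 to 42.3 ± 9.76 FPKM (-1.31 ± 0.19). *Csf3r*, a receptor of neutrophils, had no count without FK506 and in the combination was at least 5.48-fold higher than anti-CD3 alone, at 0.151 FPKM or less, beside the rise in myeloid markers. Its counts there were 46, 6 and 7, and without combination replicate 1 the bound was 2.19-fold and the call was lost (adjusted p = 0.061). *Lepr*, the leptin receptor gene, was not called (-0.18 ± 1.14). Its counts were 82, 3 and 0 with anti-CD3 alone and 38, 22 and 15 in the combination, so size and direction rest on 1 anti-CD3 library.

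Of 10 signal transducers, 3 were called in the combination against anti-CD3 alone, a share near the 24.6% of all genes. *Jak2* fell from 265 ± 46.8 to 71.8 ± 1.88 FPKM (log2 -2.11 ± 0.21, edgeR adjusted p = 2.06e-05), *Jak1* rose from 44.9 ± 7.62 to 110 ± 10.9 (1.09 ± 0.13) and *Stat5a* fell from 96.7 ± 8.95 to 54.1 ± 0.845 (-1.04 ± 0.12). Both last values are near 2-fold and dropped under it without 1 library, *Jak1* without anti-CD3 replicate 2 (0.99) or combination replicate 1 (0.99) and *Stat5a* without anti-CD3 replicate 1 (-0.95). *Stat3*, the main transducer of gp130, was 91.5 ± 17.1 and 89.4 ± 3.54 FPKM (-0.24 ± 0.12, adjusted p = 0.137). Thus the kinases moved apart and *Stat3* differed by less than 2-fold. With FK506 alone *Jak2* (-1.36 ± 0.20) and *Gab2*, an adaptor of the gp130 pathway (-2.27 ± 0.33), fell. *Gab2* in the combination was close to anti-CD3 alone (0.13 ± 0.31).

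Among 6 inhibitors, 2 fell in the combination, beside 10.8% of all genes. *Socs3*, the feedback inhibitor of gp130, fell from 59 ± 17.1 to 19.2 ± 8.82 FPKM (log2 -1.86 ± 0.32, edgeR adjusted p = 0.000694) and *Socs1* from 160 ± 71.1 to 66.3 ± 18.2 (-1.45 ± 0.30, adjusted p = 0.00195). With FK506 alone *Socs3* fell as well (-1.09 ± 0.32, adjusted p = 0.0324), a call lost without anti-CD3 replicate 1, FK506 replicate 1 or FK506 replicate 2 (adjusted p of 0.111 to 0.113). The other 4 stayed under 2-fold, the phosphatase genes *Ptpn6* (-0.50 ± 0.09) and *Ptpn2* (-0.68 ± 0.10) on the lower side and *Pias1* (0.82 ± 0.11) and *Pias3* (0.83 ± 0.13), which encode inhibitors of STAT proteins, on the higher side. Of the 4 genes for shedding of IL-6Rα (the proteases *Adam10* and *Adam17* and their regulators), edgeR called 0 in the combination against anti-CD3 alone, beside 24.6% of all genes, with 1 at an unadjusted p under 0.05 and 0 by DESeq2 or limma. This was *Adam17*, at 13.4 ± 2.1 and 26 ± 0.251 FPKM (0.74 ± 0.11, under 2-fold).

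Genes known as STAT3 targets in T cells moved in both directions. Of 17, 7 rose and 7 fell in the combination against anti-CD3 alone, beside 13.8% and 10.8% of all genes, with a median log2 difference of 0.34 beside 0.02 over all genes. *Il21*, a cytokine of follicular helper and Th17 cells, fell from 42.6 ± 13.8 to 1.03 ± 0.0843 FPKM (-5.56 ± 0.47, edgeR adjusted p = 9.97e-06). *Il17f*, a Th17 cytokine, rose from 0.215 ± 0.214 to 7.42 ± 4.16 FPKM (4.89 ± 1.03, adjusted p = 0.00248), and *Rora*, a Th17 transcription factor, from 0.541 ± 0.143 to 9.51 ± 1.65 FPKM (3.91 ± 0.38, adjusted p = 1.86e-05). Without anti-CD3 replicate 1 or combination replicate 1 the *Il17f* value was 5.87 or 4.21. The abundant targets *Pim1* (-0.13 ± 0.15) and *Mcl1* (0.34 ± 0.10) were not called. With FK506 alone 3 of 17 rose and 4 fell, beside 6.44% and 4.12% of all genes.

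**Figure D5:**
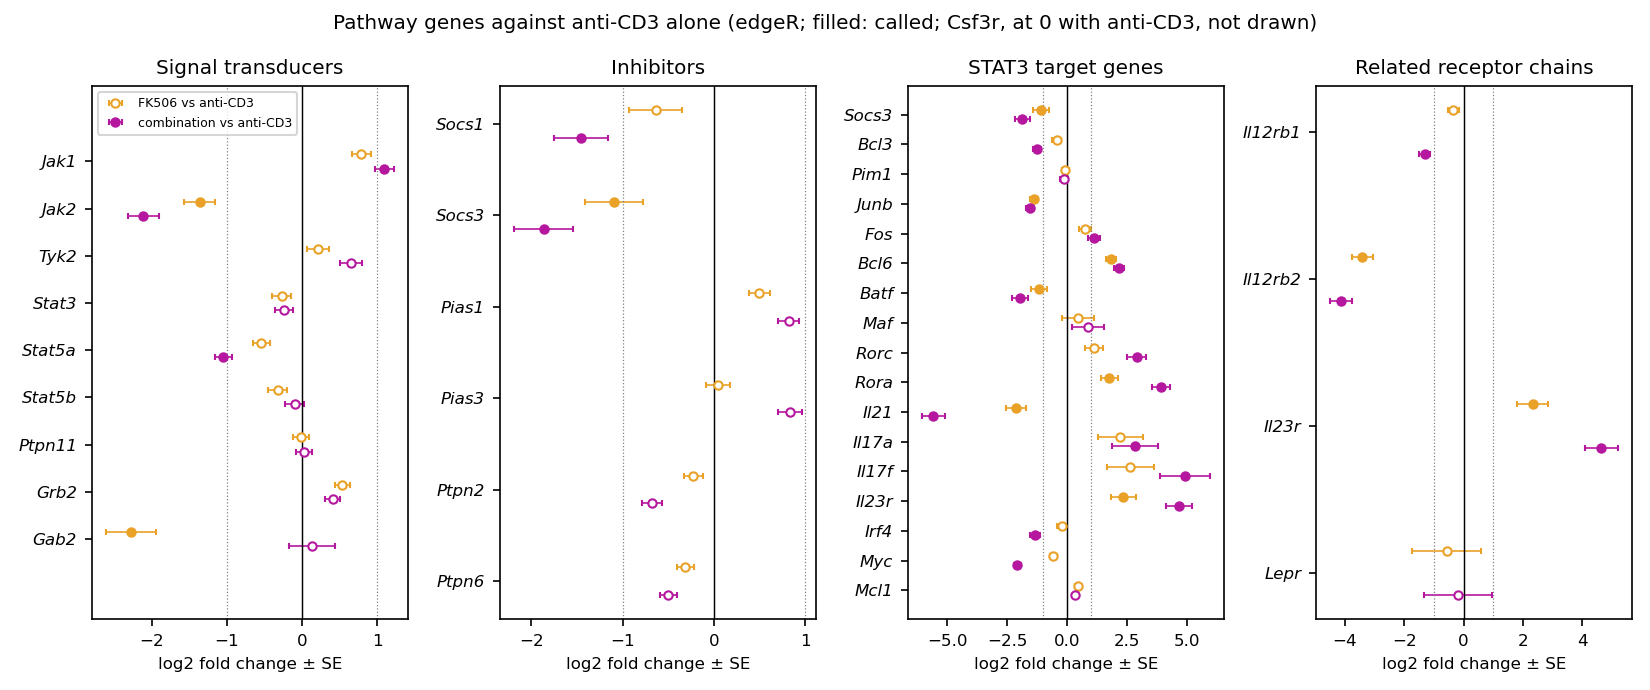
Log2 fold change ± SE (edgeR, n = 3 per group) against anti-CD3 alone, for FK506 and the combination, of genes from the lists of signal transducers, inhibitors, STAT3 targets and related receptor chains. Filled points passed the adjusted p and the 2-fold cut-off (dotted lines), and each panel has its own scale. In the combination 7 of the 17 STAT3 targets are filled on each side of 0, and *Jak1* and *Jak2* lie on opposite sides.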

How the data were processed

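RNA-seq data of 12 libraries (4 groups of 3, taken with their replicate numbers from the labels) were analysed. Per the submitters' processing notes, bcl2fastq 2.20.0, Trimmomatic, HISAT2 2.1.0 and StringTie 2.1.3b were used with mm10 (GRCm38). The authors deposited 1 table of 45777 genes with whole-number read counts that were not normalized, FPKM values scaled to transcript length and library size, and TPM values. How the counts were made from the alignments is not given in the sources used here. The quantile normalization named in the study's methods was not seen in the FPKM columns, whose totals differ.

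Genes with counts above 0 in 3 or more libraries (23585) were tested with edgeR 4.0.16 (quasi-likelihood test, TMM, all 12 libraries, 1 mean per group) in R 4.3.3. Calls needed an at least 2-fold change and an adjusted p (Benjamini-Hochberg) under 0.05, and the departure from the sum at the adjusted p alone. SE was computed from the log2 fold change and the square root of its F statistic. Levels are FPKM, and TPM gave the same order of groups for all 7 genes. FPKM do not carry the TMM factors of the test, so whether ranges overlap can differ on the scale of the test. A fold against a group at 0 was computed against 3 counts per library. No 2 libraries of a group agreed within sampling noise, but the distances were uneven. Libraries 2 and 3 differed by a chi-square per degree of freedom of 4.61 in the combination and 9.57 with *L. acidophilus*. All other library pairs within a group gave 47.7 to 204.5. In these groups libraries 2 and 3 were thus much closer to each other than to library 1, so the 3 libraries may not be equally independent. Library 1 had the most counts in every group, and the cause was not tested. The test was checked on simulated counts of the combination against anti-CD3 and of the departure, where it recovered most changes of 4-fold but missed most of 2-fold. The simulation gave all genes 1 fixed spread that was not estimated from these data, and it set no fold cut-off. Its recovery need therefore not hold for each of the 7 genes. Total counts per library were 45416397 to 64658165, and the precision of genes with few counts is limited by counting error.

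Same-numbered libraries deviated together in every pair for *L. acidophilus* against anti-CD3 (r = 0.471, 0.301 and 0.227 across 12221 genes) and for the combination against *L. acidophilus* (r = 0.231, 0.240 and 0.142). In the other 3 comparisons at least 1 pair was at 0.1 or lower, so the numbers were taken as pairs in these 2 only. For the combination against *L. acidophilus*, the replicate 3 pair (0.142) was barely above the highest value between different numbers (0.137). The labels give no pairing, so this is an assumption. The block was fitted to all 12 libraries, and the main fits had none. With the block, 69 instead of 44 genes were called for *L. acidophilus* against anti-CD3.

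The 7 genes and all gene lists were chosen with earlier results of these data known. All ligands and receptors listed may be named. Of the other lists, the rule named up to 4 called genes with the largest change in the combination against anti-CD3 alone and up to 2 abundant genes not called. *Gab2*, *Pias1* and *Pias3* were also named after their values were seen, and some genes of the lists are not reported here. Alternatives were DESeq2 1.42.0, limma 3.58.1 on log2(FPKM + 1) and log2(FPKM + 0.1), no TMM, other filters, the replicate block, only the 6 libraries compared, no fold cut-off, and each library left out. Promoters and positions came from RefSeq tables of GRCm38.p6, the build of the files. Figures were drawn with matplotlib 3.10.9.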

Additional observations from a re-analysis of the deposited data

Results flagged for a closer look

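None of the 7 genes departed from the added single effects by the edgeR test, which called 0 of them (2 at an unadjusted p under 0.05, 1 by DESeq2 and 1 by limma). Of 102 other genes listed or named here and tested, 7 did (6.86%, beside 4.35% of all genes), a departure meaning that the effect of *L. acidophilus* differed between cells with and without FK506. *Il31ra* lay below the sum (log2 -8.23, adjusted p = 0.0062), a fitted value that rests on 0 counts in the combination and is no bound. *Il21* (-3.21, adjusted p = 0.013), *Myc* (-1.29, adjusted p = 0.0107) and *Epn2* (-2.05, adjusted p = 0.044) also lay below it. *Gab2* (2.70, adjusted p = 0.0105), *Cd4* (0.67, adjusted p = 0.0219) and the myeloid marker *Fcgr3* (2.59, adjusted p = 0.035) lay above it.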

How the results depend on the processing

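Of 833 values of the 7 genes under an alternative, 780 kept their direction and side of the threshold, 24 newly passed, 13 no longer passed and 16 turned direction; the cause was not tested. *Lif* in the combination was called in 20 of 20 alternatives against anti-CD3, FK506 and *L. acidophilus*. The 7-gene count of 3 in the combination against anti-CD3 became 5 without a fold cut-off and was 2 to 4 without single libraries, and 2 with only the 6 libraries and with limma on log2(FPKM + 1). This count was 4 with DESeq2, without TMM, with filterByExpr, without a filter and with the replicate block, each calling *Lifr* higher in addition. Against FK506 it was 1 with limma on log2(FPKM + 1), which compresses genes below 1 FPKM, and 1 to 2 without single libraries; against *L. acidophilus* it was 4 with DESeq2, 4 with the replicate block and 2 to 3 without single libraries. With FK506 it was 2 to 4 and for the departure 1 with DESeq2, 1 with limma at either pseudocount and 0 to 1 without single libraries.

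Directions turned for genes that were not called. *Lifr* with *L. acidophilus* against anti-CD3 was 0.029 without TMM, 0.0014 and 0.014 with limma (pseudocounts 1 and 0.1) and -0.81 to 1.27 without single libraries (0.52 without *L. acidophilus* replicate 2). The *Osmr* departure was 0.038 and 0.0019 with limma and -6.38 to 0.26 without single libraries (0.02 without combination replicate 1). Without single libraries *Il6st* with *L. acidophilus* ranged from -0.093 to 0.32, the *Il6ra* departure from -0.058 to 0.24, *Osm* in the combination against FK506 from -0.53 to 0.058, and *Il27ra* there from -0.14 to 0.12.

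Genes called with *L. acidophilus* against anti-CD3 were 438 with DESeq2, 84 with filterByExpr, 83 without a filter, 11 with limma on log2(FPKM + 1), 69 with the replicate block, 1 to 164 without single libraries, and 0 in edgeR with only the 6 libraries (2676 at an unadjusted p under 0.05). Genes departing from the sum were 2380, 1675 and 1578 with DESeq2, limma on log2(FPKM + 1) and the block, and 331 to 1455 without single libraries. Limma on log2(FPKM + 1) gave 2318 (combination against anti-CD3), 967 (FK506), 647 (combination against FK506) and 1618 (combination against *L. acidophilus*), log2(FPKM + 0.1) gave 4811, 2087, 1757 and 3481, and no fold cut-off 10209, 4483, 4508 and 7930. Without single libraries the edgeR counts were 4766 to 5800, 1664 to 2544, 978 to 1905 and 3215 to 4039. The numbers were not taken as pairs for the combination against anti-CD3, where the block called *Lifr* (2.51, adjusted p = 0.0265) in addition; besides *Lifr* and *Osmr* against *L. acidophilus*, it changed no other call of the 7 genes. Counts of 0 to 62 outside the FK506 group limit *Lifr*, and counts under 115 limit *Osmr*.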
